A study of Mus musculus with 81 samples.

Results

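In area CA1 of the mouse hippocampus, 6913 of 60235 domains of the histone variant mH2A2 lay clear of every domain of its sister variant mH2A1 in the same 3 untrained mice. Both sets were laid out in bins of 200 bp on the mm10 genome. A consensus mH2A2 domain was a run of adjacent bins that lay under a called domain in at least 2 of the 3 untrained mice of the 30 min experiment. A member was a consensus domain of which no bin lay under a domain of any of the 3 mH2A1 libraries from the same 3 mice. The other 53322 consensus domains are called shared domains. Because the members were chosen by domain calls in these 6 libraries, the values of the 6 are given only as a description, and differences were tested only in the libraries that the rule did not use.

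Histone macroH2A is a variant of H2A that carries a globular macrodomain outside the nucleosome. H2afy encodes mH2A1 and H2afy2 encodes mH2A2, and the histone part of both is much alike. Both form broad domains that often cover silent genes, and macroH2A is best known for its abundance on the inactive X chromosome of female cells.

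All mice were C57BL/6J males, and untrained mice were home cage controls. Trained mice received contextual fear conditioning, in which a new place is paired with foot shock, and their CA1 was collected 30 min, 1 h or 6 h later. Chromatin digested with micrococcal nuclease was precipitated with an antibody to mH2A1 or mH2A2 and sequenced, giving 11 lists of mH2A2 domains and 19 of mH2A1 domains. RNA came from intact mice 1 h after training (2 trained, 3 untrained), and from CA1 injected with an AAV carrying shRNA against H2afy2, against H2afy or a scramble control (shScr, 3 mice each).

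The mH2A2 lists hold 2 trained and 3 untrained mice of the 30 min experiment and 3 trained and 3 untrained mice of the 1 h experiment. The mH2A1 lists hold the same 5 mice at 30 min, 2 trained and 2 untrained mice at 1 h, and 5 trained and 5 untrained mice at 6 h. A further RNA experiment compared 3 trained with 3 untrained mice that carried shScr, 1 h after training. The shRNA was driven by the U6 promoter together with GFP under CMV, so that it was not limited to neurons, and the tissue that showed GFP was dissected 2 weeks after injection. Tissue for ChIP was whole CA1, and that of injected mice was the part with GFP. Both hold pyramidal cells, interneurons, glia and blood vessels, so a domain is an average over these cells.

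The sequences shown are the central 300 bases of 4 members, chosen to show the ground that the results below turn on. They were read from the RefSeq copy of the GRCm38 (mm10) genome, on the plus strand, and each CG dinucleotide, the site of DNA methylation, is in capitals. The Ptprn2 and Ptpn5 members lie in introns of neuronal genes on chromosomes 12 and 7 (windows chr12:116649151-116649450 and chr7:47123751-47124050), and no mH2A1 library of the series called a domain on either. The Vsig2 member holds the start of a gene (window chr9:37538051-37538350). The Obox region member lies outside genes in repeats (window chr7:14377151-14377450). It is named after Obox8, whose start is the nearest, 41644 bp away. The called domains over this member had the highest mean ChIP over input of all members that recurred.
Ptprn2 member: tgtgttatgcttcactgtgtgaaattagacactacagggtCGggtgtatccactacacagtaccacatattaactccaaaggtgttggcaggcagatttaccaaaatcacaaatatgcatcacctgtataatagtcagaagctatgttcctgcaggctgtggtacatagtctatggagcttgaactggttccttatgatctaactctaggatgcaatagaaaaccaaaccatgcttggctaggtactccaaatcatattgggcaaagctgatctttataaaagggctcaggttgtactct
Ptpn5 member: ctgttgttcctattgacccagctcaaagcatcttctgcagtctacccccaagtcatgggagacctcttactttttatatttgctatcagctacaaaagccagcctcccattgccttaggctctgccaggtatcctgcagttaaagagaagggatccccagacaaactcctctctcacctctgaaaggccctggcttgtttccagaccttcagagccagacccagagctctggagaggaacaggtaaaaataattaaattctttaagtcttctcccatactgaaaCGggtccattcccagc
Vsig2 member: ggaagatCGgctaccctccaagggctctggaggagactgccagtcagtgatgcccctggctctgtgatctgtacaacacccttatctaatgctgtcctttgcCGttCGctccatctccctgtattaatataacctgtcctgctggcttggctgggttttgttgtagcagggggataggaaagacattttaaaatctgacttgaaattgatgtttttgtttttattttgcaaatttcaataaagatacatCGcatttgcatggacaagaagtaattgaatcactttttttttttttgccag
Obox region member: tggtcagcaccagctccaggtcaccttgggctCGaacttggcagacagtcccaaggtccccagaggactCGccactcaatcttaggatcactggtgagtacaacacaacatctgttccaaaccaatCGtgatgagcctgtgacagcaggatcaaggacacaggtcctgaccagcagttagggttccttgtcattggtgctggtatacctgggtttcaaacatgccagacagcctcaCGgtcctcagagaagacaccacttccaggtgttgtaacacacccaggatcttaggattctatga
The Ptprn2 and Ptpn5 windows hold 1 CG each and the Vsig2 and Obox region windows 4 each, and none of the 4 is dense in CG. This was typical, since the members held a median of 10 CG per kb and the shared domains 11.0 per kb, against 8.26 per kb in the genome. The CG count over that expected from base composition was 0.185 in members and 0.191 in shared domains, against 0.190 in the genome. Members were 47.2% G and C in the median and shared domains 47.9%, both above the 41.7% of the genome, and repeats took 22.6% of the bases of members and 23.2% of those of shared domains, against 36.4% of the genome. In sequence the members therefore stood close to the shared domains.

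Members were short, and fewer of them than of shared domains were found in all 3 mice. They covered 18.5 Mb with a median length of 2400 bp (quartiles 1400 and 3400 bp, longest 17600 bp), whereas the shared domains covered 308 Mb with a median of 3800 bp and reached 162400 bp. Of consensus domains under 1 kb, 27.4% were members, and of those of 8 kb and more, 1.16%. A domain was found in all 3 untrained mice of the 30 min experiment for 693 members (10.0%) and for 39.6% of the shared domains. The deposited log2 of ChIP over input belongs to a called domain as a whole. For each library it was read from the called domain with the largest overlap, which can reach past the member. All such domains had passed the FDR of the calling. Averaged over the libraries, it was alike, with medians of 0.34 in members and 0.34 in shared domains.

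The rule cut through a graded pattern. For 120 members the nearest mH2A1 domain of the 3 mice began in the next bin, for 2316 (33.5%) it lay under 2 kb away, and the median distance was 3600 bp. Just outside the rule were the 1.55% of shared domains with a single bin under mH2A1, and 10697 in which only 1 of the 3 mH2A1 libraries had a domain. Members lay on all 21 chromosomes, most densely on chromosome 7 (923 members, 6.35 per Mb), chromosome 17 (5.55 per Mb) and chromosome 19 (5.05 per Mb). Consensus domains of any kind were also densest on chromosomes 7 (45.6 per Mb) and 17 (36.2 per Mb), with 30.3 per Mb on chromosome 19. Members made up 13.9%, 15.3% and 16.6% of the consensus domains on chromosomes 7, 17 and 19, against 11.5% of all consensus domains. The X chromosome held 8 members (0.047 per Mb) and few consensus domains of any kind (0.602 per Mb).

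A library was measured by the share of all member bases that lay under its domains, and this was set against the share of the genome under its domains. In the libraries that chose the members this share was 59.8%, 75.6% and 73.9% for mH2A2 and 0% for mH2A1, as the rule required. In the trained mice of the 30 min experiment, which the rule did not use, mH2A2 covered 30.6% and 21.3% of member bases and mH2A1 12.4% in each mouse. In the 1 h experiment mH2A2 covered 33.5%, 23.1% and 36.9% in trained mice and 27.7%, 39.2% and 34.7% in untrained mice. Every one of these 8 mH2A2 libraries was above every mH2A1 library of the 3 experiments.

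For mH2A1 the shares at 1 h were 10.4% and 12.6% in trained mice, and 12.1% and 15.3% in untrained mice. At 6 h they were 12.7% to 14.1% in trained mice (median 13.0%), and 12.7% to 15.4% in untrained mice (median 13.9%). The genome share was 8.28% to 16.4% in the 11 mH2A2 libraries and 11.9% to 23.7% in the 19 mH2A1 libraries, and outside the libraries of the rule members were covered by mH2A2 at 1.69 to 2.58 times its share of the genome, and by mH2A1 at 0.499 to 1.04 times. The depth of the ChIP libraries is not known from domain lists, and it bears on how much of a genome is called.

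**Figure D1:**
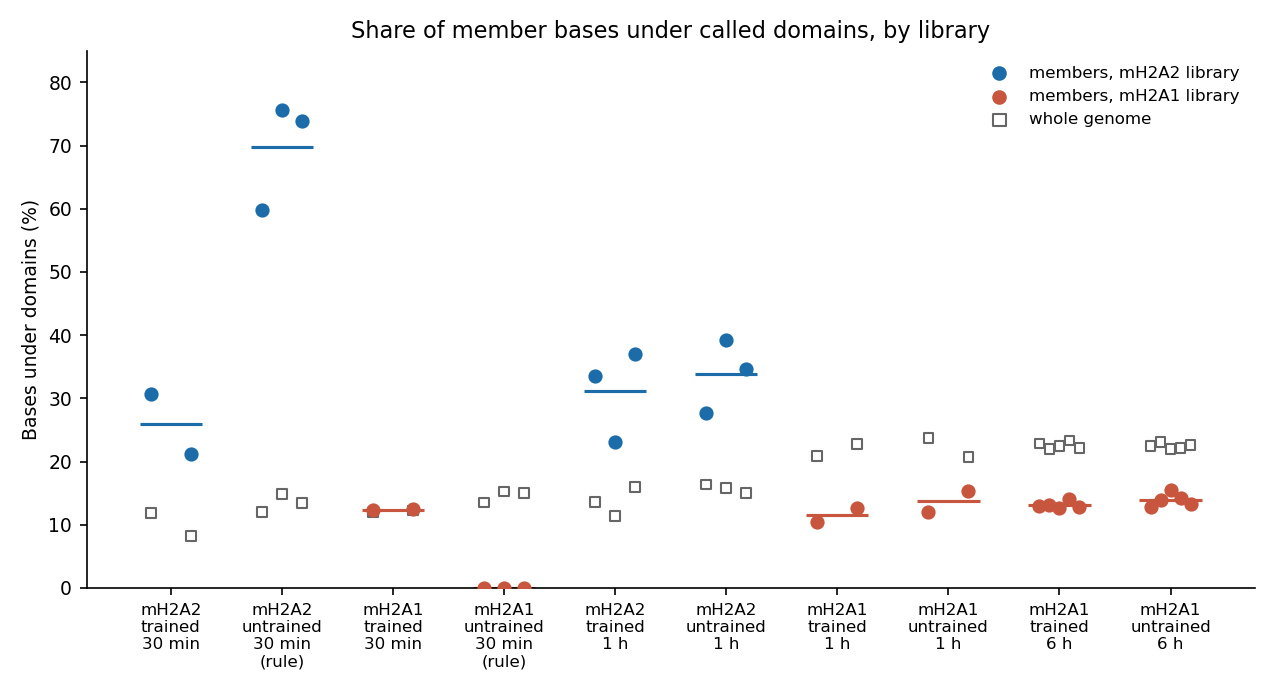
Share of bases under called domains (%, y axis) in members (filled points, mH2A2 in blue and mH2A1 in red) and in the whole genome (open squares), for each library by antibody, training and experiment (x axis), with bars at the mean over members. Outside the 6 libraries of the rule, mH2A2 points sit between 21.3% and 39.2% and mH2A1 points between 10.4% and 15.4%.

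Over members, mH2A2 libraries stood at 2.28-fold of the genome (log2 1.19 ± 0.21, SD, n = 8) and mH2A1 libraries at 0.691-fold (log2 −0.53 ± 0.48, SD, n = 6). The difference of 1.72 on the log2 scale had p = 0.005 in a two-sided exact permutation test over libraries within experiment and condition, the smallest p that the 400 arrangements can give. It covered the 14 libraries of conditions with both antibodies, which leaves out those of 6 h. Members differed from shared domains too, since the log2 of member over shared coverage was −0.85 ± 0.11 in mH2A2 libraries (n = 8) and −2.17 ± 0.19 in mH2A1 libraries (n = 6, difference 1.32, exact permutation p = 0.005).

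The labels of both untrained mH2A1 libraries at 1 h conflict, since their titles name macroH2A1 and other fields macroH2A2, and the title was followed here. Without the untrained mice at 1 h the differences were 1.70 and 1.34, with exact permutation p = 0.05 for each, the smallest that the remaining 40 arrangements allow. By the study's methods the mH2A1 antibody also differed, from Abcam at 30 min and from Thermo Fisher at 1 h and 6 h, whereas all mH2A2 libraries used Abcam. The labels give Abcam for mH2A1 at every time, and a catalogue number for mH2A2 other than that of the methods. The genome share of mH2A1 was 11.9% to 15.3% at 30 min and 20.8% to 23.7% at 1 h and 6 h, and experiment and antibody cannot be told apart there.

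No difference in coverage of the members with training passed the test, and in each comparison the mice overlapped. For mH2A2 at 1 h the log2 over the genome was 1.17 ± 0.14 in trained mice and 1.09 ± 0.29 in untrained mice (n = 3 each, difference 0.08, exact permutation p = 0.9). For mH2A1 it was −0.93 ± 0.11 in trained mice and −0.71 ± 0.37 in untrained mice at 1 h (n = 2 each, exact permutation p = 0.667), where no p under 0.333 was possible. At 6 h mH2A1 stood at −0.78 ± 0.04 in trained mice and −0.69 ± 0.12 in untrained mice (n = 5 each, difference −0.09, exact permutation p = 0.190). Adjusted over the 3 comparisons by Benjamini-Hochberg, these exact permutation p-values were 0.9, 0.9 and 0.571.

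Most single members did not meet both parts of the rule in other mice. In the 3 untrained mice at 1 h, 783 members had an mH2A2 domain in all 3, 1958 in 2, 2047 in 1 and 2125 in none. In the same condition 4986 members had no mH2A1 domain in either library and 891 had one in both. Both parts of the rule, mH2A2 in at least 2 mice and mH2A1 in none, held for 1973 members (28.5%) and for 13.3% of shared domains. Applied afresh to the untrained mice at 1 h, the rule gave 23395 of 77643 domains, of which 1903 (8.13%) touched a member, and 1799 members (26.0%) touched one of them. Across all 19 mH2A1 libraries, 3315 members (48.0%) were never under an mH2A1 domain.

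The place of a member in the genome was read from the GENCODE vM21 annotation. Protein-coding gene bodies held 4322 members (62.5%), against 42.6% of shared domains, and such bodies take 38.2% of the genome. The gap was present at each length, with 54.4% of members and 33.5% of shared domains under 1 kb, and 97.5% of members and 64.1% of shared domains of 8 kb and more. Only introns of protein-coding genes were touched by 30.3% of members and 13.6% of shared domains, and exons without the gene start by 28.8% of members and 20.8% of shared domains. Starts of protein-coding genes lay in 234 members (3.38%) and in 8.22% of shared domains, which are longer. From 2 to 4 kb these shares were 3.93% of members and 3.94% of shared domains, from 4 to 8 kb 5.90% and 7.72%, and from 8 kb on 5.74% and 22.1%. Outside any annotated gene lay 2102 members (30.4%) and 44.4% of shared domains.

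Members in gene bodies and members outside genes behaved differently in the libraries that the rule did not use, a contrast chosen after the data had been seen. In gene bodies mH2A2 covered 16.1% to 46.2% of member bases in its 8 libraries, and mH2A1 covered 4.45% to 9.51% in its 16, with no overlap. Outside genes mH2A2 covered 17.7% to 38.7% and mH2A1 24.7% to 34.8%, and the ranges overlapped. These are plain percents of bases, not scaled to the share of the genome that a library covered, which was larger for mH2A1 than for mH2A2 at 1 h. In the trained mice at 30 min the outside values did not overlap, at 31.6% and 32.7% for mH2A2 and 25.8% and 24.7% for mH2A1.

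In gene bodies the difference of mH2A2 minus mH2A1 libraries was 2.36 on the log2 scale (exact permutation p = 0.005), and outside genes −0.14 (exact permutation p = 0.48). The outside difference was 0.35 in trained mice at 30 min, −0.42 in trained mice at 1 h and −0.23 in untrained mice at 1 h. With each value divided by the share of the genome that its library covered, a scaling added after the data had been seen, the difference was 2.80 in gene bodies (exact permutation p = 0.005) and 0.30 outside genes (exact permutation p = 0.04). The direction outside genes thus depends on the scaling, and without trained 30 min mouse 2 the scaled value was 0.23 (exact permutation p = 0.08), without untrained 1 h mH2A2 library 1 it was 0.26 (exact permutation p = 0.0667). The log2 of body over outside coverage was 0.28 ± 0.81 in mH2A2 libraries (n = 8) and −2.22 ± 0.31 in mH2A1 libraries (n = 6), a difference of 2.50 (exact permutation p = 0.005). It was 1.30 in trained mice at 30 min, 3.19 in trained mice at 1 h and 2.73 in untrained mice at 1 h. Shared domains had the same direction at a smaller size, with a difference of 0.72 (exact permutation p = 0.01).

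Of the mH2A2 libraries, 2 had body coverage far below outside coverage, and they were picked after the data had been seen. In trained mouse 2 at 30 min mH2A2 covered 16.1% of body bases and 32.7% outside, and in untrained mouse 1 at 1 h 23.6% and 38.7%. In the other 6 libraries body coverage ran from 25.3% to 46.2% and outside coverage from 17.7% to 31.6%. Among these 6, trained mouse 1 at 30 min also had the lower value in bodies, at 29.9% against 31.6% outside. Neither mH2A2 library at 30 min thus had higher coverage in bodies than outside. Without trained 30 min mouse 2 and untrained 1 h mH2A2 library 1, the difference of body over outside coverage was 2.98 (exact permutation p = 0.0167). Without the untrained mice at 1 h, whose mH2A1 labels conflict, it was 2.38 (exact permutation p = 0.05, the smallest possible).

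**Figure D2:**
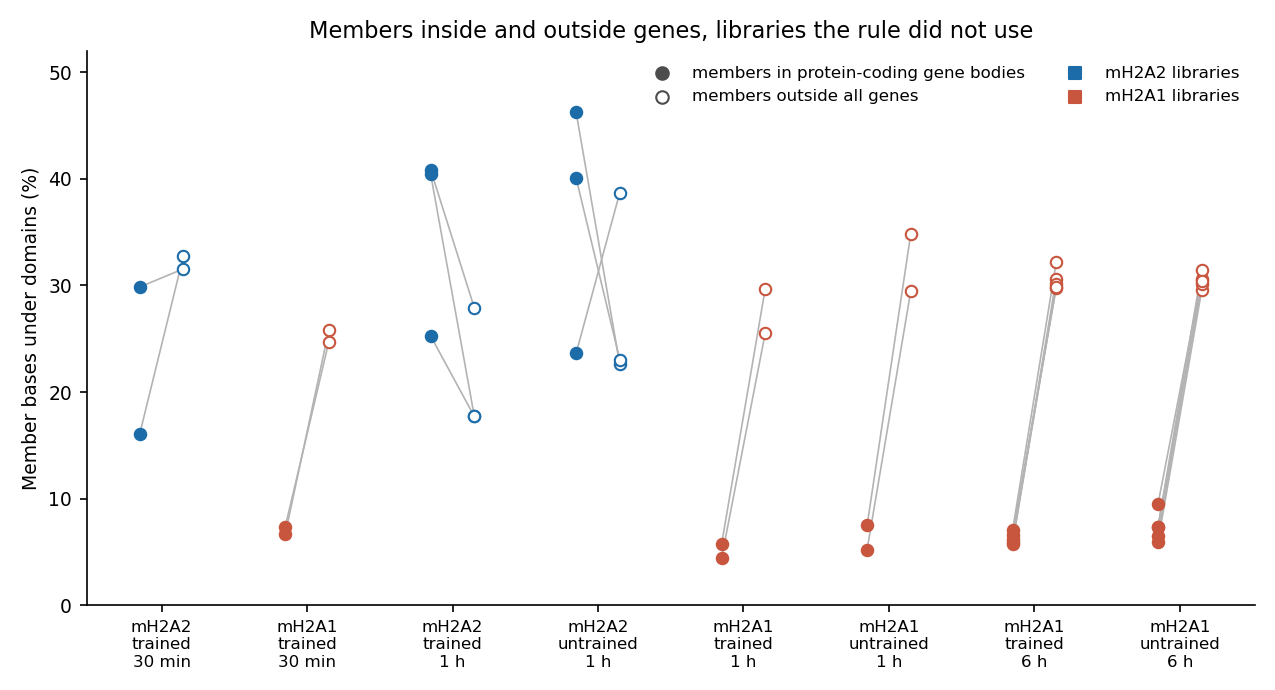
Share of member bases under domains (%, y axis) for members in protein-coding gene bodies (filled) and outside all genes (open), with a line joining the values of each library, by antibody (mH2A2 in blue, mH2A1 in red), training and experiment (x axis). All mH2A1 lines rise steeply, with body values of at most 9.51% and outside values of at least 24.7%, whereas mH2A2 lines run both ways.

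Expression of the gene around a member was taken from the 3 untrained intact mice, as counts scaled to exon length and library total (RPKM). Genes with a count were split into 3 classes of equal size at 1.05 and 7.63 RPKM, giving 5515 genes of low, 5516 of medium and 5515 of high expression beside 3509 not detected. Members took 1.64% of the body bases of high genes, 1.28% of medium, 0.509% of low and 0.807% of undetected genes. Shared domains ran the other way, with 11.4%, 11.3%, 19.3% and 19.1%. Of the mH2A2 domain bases in bodies, members therefore made up 12.6% in high genes, 10.2% in medium, 2.58% in low and 4.05% in undetected genes. In genes of 100 kb and longer, members made up 17.8% of domain bases in high genes and 3.13% in low genes, and in genes under 10 kb 7.97% and 2.08%, so the order held in long and in short genes.

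The untrained mice at 1 h, to which the rule was applied afresh, also gave the largest share in high genes and the next in medium genes, both larger than at 30 min, while low and undetected genes stood in the opposite order. Domains of mH2A2 without mH2A1 made up 70.0% of mH2A2 domain bases in high genes, 49.7% in medium, 10.5% in low and 8.66% in undetected genes. These values rest on the 2 mH2A1 libraries whose labels conflict. The 1697 members in highly expressed genes were covered by mH2A2 to 18.6% to 53.7% in the 6 libraries at 1 h (median 45.8%), against 1.39% to 2.96% by mH2A1 in 4 libraries at 1 h and 2.49% to 7.40% in 10 at 6 h. The 525 members in low genes were covered by mH2A2 to 20.9% to 36.1% at 1 h, against 19.2% to 28.2% by mH2A1 at 1 h and 23.8% to 28.9% at 6 h, and these ranges overlapped. In the trained mice at 30 min the members in low genes were covered to 25.3% and 30.5% by mH2A2 and to 16.4% and 17.9% by mH2A1, with no overlap. Those in high genes were covered there to 11.5% and 28.0% by mH2A2 and to 3.07% and 4.26% by mH2A1. In whole CA1, a gene that a minor cell type alone transcribes may count as low, and bulk libraries cannot place a domain in one cell type.

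**Figure D3:**
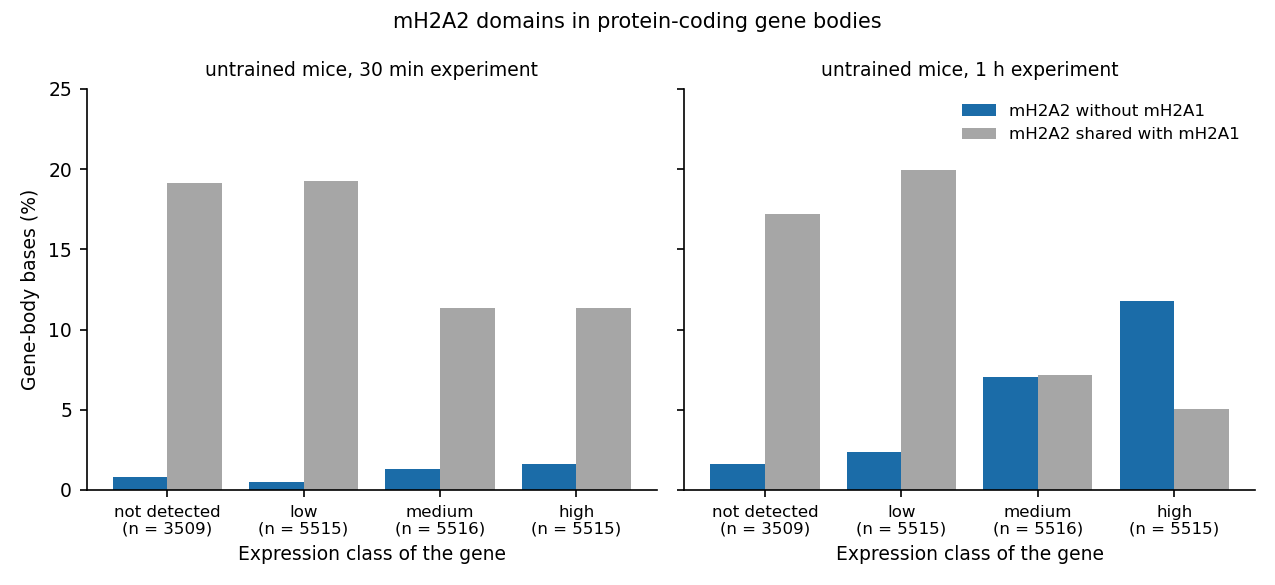
Share of protein-coding gene-body bases (%, y axis) under mH2A2 domains without mH2A1 (blue) and under mH2A2 domains shared with mH2A1 (grey), by expression class of the gene in untrained intact mice (x axis), for the rule in the untrained mice of the 30 min experiment (left) and of the 1 h experiment (right). In the 1 h mice the share without mH2A1 is 11.8% in high genes and 2.34% in low genes, and the shared domains run from 5.05% to 19.9%.

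Members were spread over 2846 of 21938 protein-coding genes, of which 866 held at least 2 and 18 at least 10. The gene with the most was Ptprn2 on chromosome 12, which encodes a phosphatase-like protein of secretory vesicles, with 30 members over 13.6% of its 791 kb. Gabbr2 on chromosome 4, which encodes a subunit of the metabotropic GABA-B receptor, held 19 members over 20.4% of its 330 kb. Dlgap2, a scaffold protein of the postsynaptic density, held 17 members, and Pde10a, a phosphodiesterase of cyclic nucleotides, and Nav2, a neuron navigator, held 13 each. Camta1, a transcription activator that binds calmodulin, Grid1, a delta-type glutamate receptor, Mtus2 and the organic anion transporter Slco3a1 held 12 each. Cacna1c, the pore subunit of an L-type calcium channel, held 11, Gria1, an AMPA receptor subunit, 10, and Ryr2, the ryanodine receptor that releases calcium from the endoplasmic reticulum, 9. Fgfr2 held 15, but its annotated span of 2961 kb gives it only 0.507 members per 100 kb.

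In Gabbr2 the members were covered by mH2A2 to 73.2%, 56.0% and 78.9% in trained mice at 1 h and 46.7%, 90.8% and 93.2% in untrained mice at 1 h. In the trained mice at 30 min mH2A2 covered 15.8% and 2.38%. The 4 mH2A1 libraries at 1 h covered 0%, those of trained mice at 30 min 0% and 4.17%, and those at 6 h 0% to 9.23% in trained and 0% to 35.1% in untrained mice. Coverage by mH2A2 was thus high at 1 h and low in the trained mice at 30 min, where it overlapped that by mH2A1. The gene holds the longest run of members, 11 within 93.0 kb with no gap above 20 kb (chr4:46700201-46793200). Such runs of at least 2 members held 2532 members (36.6%) in 1039 groups, and the next longest lay in Ryr2, in Slco3a1 and between the vomeronasal receptor genes Vmn2r124 and Vmn2r91, with 8 members each.

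**Figure D4:**
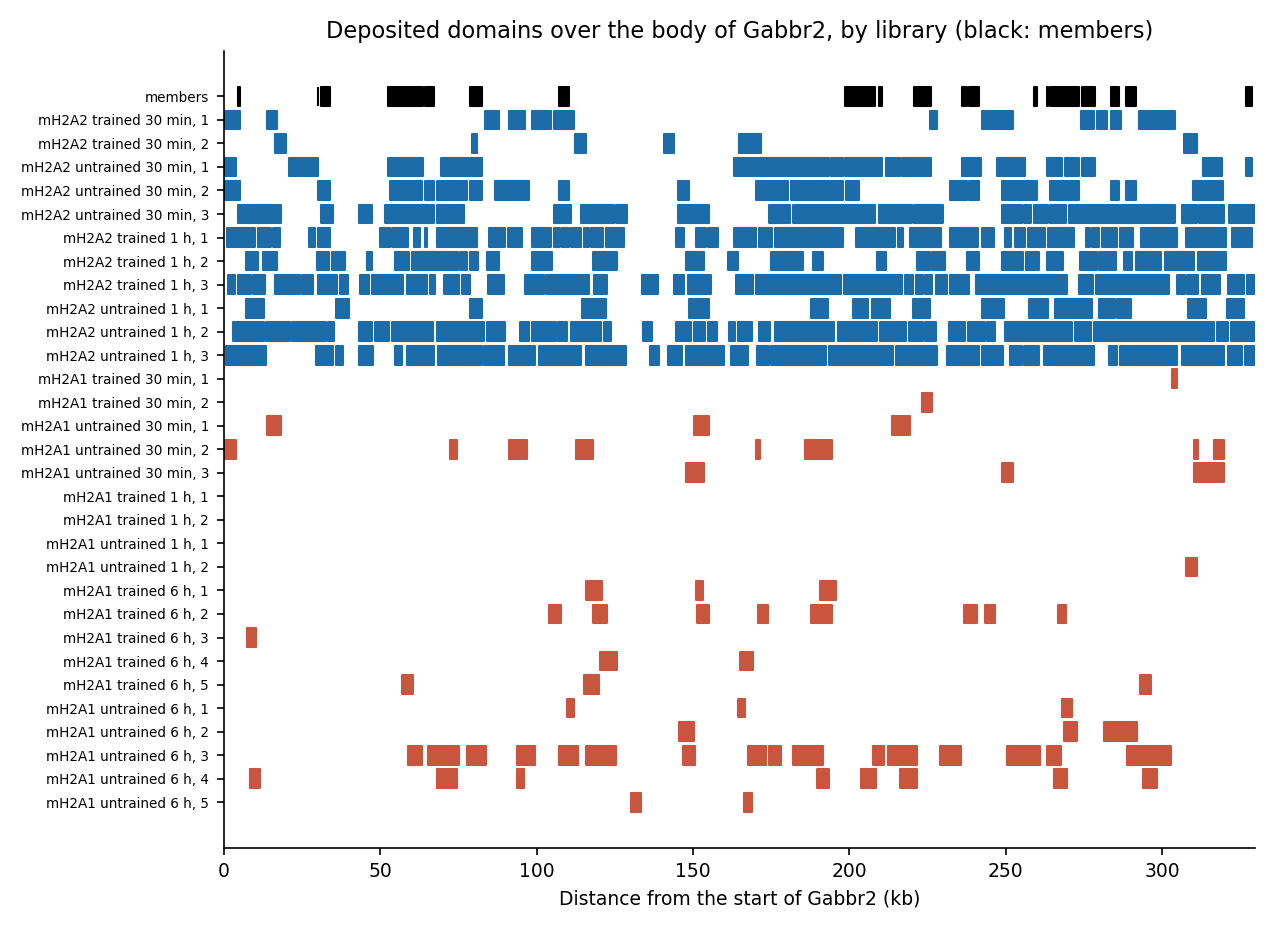
Called domains along the body of Gabbr2 (x axis, distance from the gene start in kb) in each of the 30 libraries (rows, mH2A2 in blue and mH2A1 in red), with the 19 members in black at the top. All mH2A2 rows hold domains over the gene, whereas of the 4 mH2A1 rows at 1 h 3 are empty and the row of the third untrained mouse at 6 h is the fullest of mH2A1.

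The other genes rich in members showed this pattern to different degrees. Over the 30 members of Ptprn2, coverage was 17.3% to 83.3% (median 58.5%) in the 8 mH2A2 libraries and 0% in 13 of the 16 mH2A1 libraries, with 11.5% at most. Members of Grid1 and Cacna1c were under no mH2A1 domain in any of these 16 libraries, and mH2A2 covered a median of 50.0% of the members of Grid1 and 38.9% of those of Cacna1c. Members of Gria1 were covered to a median of 62.8% by mH2A2, and 15 of 16 mH2A1 libraries had none over them. Grik4, which encodes a kainate receptor subunit, went against this, with medians of 71.8% for mH2A2 and 61.3% for mH2A1 over its 9 members. Over the 13 members of Nav2 the medians were 33.8% for mH2A2 and 0% for mH2A1. Vps13d, of lipid transfer between organelles, was an exception among these genes, since mH2A2 was at 0% over its 11 members in 3 of 8 libraries and had a median of 3.28%. In trained mice at 30 min mH2A2 covered 20.2% and 30.6% of them, and mH2A1 2.19% and 4.92%. Over the members of Fgfr2 and of Usp29 no mH2A1 library was at 0%, and the medians were 27.3% for mH2A2 and 9.63% for mH2A1 in Fgfr2, and 50.5% for mH2A2 and 18.2% for mH2A1 in Usp29.

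Lists of genes were counted for members in their bodies, beside 13.0% of all protein-coding genes. Of 30 genes for glutamate receptors and the postsynaptic density 12 (40.0%) held members, 41 members in all, but the median length of these 30 genes is 232 kb, against 17.4 kb over all genes. Gria1 held 10, Grik4 9, Grin2a, an NMDA receptor subunit, 9, and Shank2, a postsynaptic scaffold, 4. As a share of mH2A2 domain bases, members took 9.98% in this list and 7.85% over all protein-coding genes, which is closer than the counts of genes.

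No member touched any of 57 developmental transcription factors, such as Hoxa9, Pax6 and Gata4, although shared domains covered 56.2% of their body bases. Of 30 Polycomb genes 5 (16.7%) held members, Kdm2b 3 and Pcgf5 3, both of variant forms of Polycomb repressive complex 1. Of 30 imprinted genes 4 (13.3%) held members, with 10 in Usp29 and 4 in Igf2r, whose antisense transcript Airn held 3. Dnmt3a, a de novo DNA methyltransferase, held 4 members, and it was with Trim28 the only gene with a member among 21 of heterochromatin and DNA methylation. Dusp1 was the only one of 21 immediate early genes, by an overlap of 11 bases. Of the remaining lists, members lay over 3 of 27 interferon response genes (Ifit2, Stat2 and Ifit1), 3 of 30 for ribosomal proteins, 2 of 11 for H2A variants and their loaders (Ep400 and Srcap) and 1 of 16 for inhibitory neurons (Reln).

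The 10 longest members ranged from 13800 to 17600 bp, and each lay over exons of a protein-coding gene. The longest, chr11:76416001-76433600, lay over Abr and over Timm22, of mitochondrial protein import, and was fully covered in 2 of the 3 mice of the rule, with log2 of ChIP over input of 0.26 and 0.28. It had mH2A2 domains in 3 trained and 2 untrained mice at 1 h, and mH2A1 in 1 of the 19 libraries. The next lay over Axin2, a brake on Wnt signalling (chr11:108936801-108954000), 5031439G07Rik (chr15:84945801-84963000) and Csmd2 (chr4:128495801-128512800). The remaining 6 lay over Col4a1, Mindy4, Nav2, Prkag2, Qsox1 and Ptprj. Of the 10, 4 were under mH2A1 in none of the 19 libraries, 4 in 1 and 2 in 2. Their log2 of ChIP over input was low, with means of 0.12 to 0.27.

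A stricter group of 72 members (1.04%) had mH2A2 in all 3 untrained mice of both experiments and mH2A1 in no untrained library. Of these 63 (87.5%) lay in protein-coding gene bodies, and their median length was 5300 bp. As all untrained libraries entered this choice, their values are a description. Among the 10 with the highest ChIP over input, that in an intron of Ptprn2 (chr12:116647201-116651400) had log2 values of 0.42, 0.54 and 0.29. They came from 182, 235 and 1184 ChIP reads, counted over the whole called domain of each mouse and not over the member alone. The member of Ptpn5, a phosphatase of neurons (chr7:47122201-47125600), had 0.21, 0.67 and 0.47. All 5 trained mH2A2 libraries had a domain on each of these, and no mH2A1 library had one.

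The highest of all did not lie in neuronal genes. The Obox region member (chr7:14375201-14379400) had log2 values of 1.46, 0.79 and 0.53, and repeats took 80.9% of its bases. It was followed by members in Nlrp4b (chr7:10689801-10697200, mean 0.78), at Olfr703 (chr7:106841801-106845400, mean 0.76), outside genes at chr7:10479001-10481600 (mean 0.62) and in Cyp2c68 (chr19:39729401-39733800, mean 0.57). Nlrp4b, Olfr703 and Cyp2c68 belong to large families of similar genes, where reads of one copy may be placed on another, so these positions are uncertain. Of all members, 336 (4.86%) lay within 20 kb of a vomeronasal or olfactory receptor, Obox, Nlrp or Cyp2 gene, close to the 4.45% of shared domains, and chromosome 7 held 163 of the 336. The remaining 3 of the 10 lay outside genes at chr8:18020401-18024200, chr19:56780801-56784400 and chr8:116962401-116966600 (means 0.42, 0.41 and 0.40). The starts of Olfr703 and of Vsig2, an immunoglobulin-domain protein of the cell surface, were the only 2 gene starts in the 72, and the Vsig2 member (chr9:37535801-37540600) had log2 values of 0.17, 0.20 and 0.39.

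RNA was examined for genes whose start lay within 2 kb of a member, 1301 genes of which 607 code for protein. Values are counts scaled to the library total (CPM), and tests are edgeR quasi-likelihood tests over all genes with Benjamini-Hochberg adjustment. Both knockdowns were set against the same shScr mice, so their results are not independent of each other. Fewer cells of a type and less RNA per cell cannot be told apart in whole tissue. H2afy2 itself had 13.2, 8.21 and 7.74 CPM in shH2afy2 mice, against 18.2, 19.0 and 18.2 CPM in shScr mice, without overlap (log2 fold change −0.95 ± 0.22 SE, edgeR adjusted p = 0.0907). H2afy had 43.5, 44.5 and 38.7 CPM in shH2afy mice, against 60.6, 59.2 and 50.6 CPM in shScr mice, again without overlap (−0.37 ± 0.10 SE, edgeR adjusted p = 0.0310). Both knockdowns were thus partial in the RNA of this tissue. H2afy had 72.1, 66.3 and 67.5 CPM in shH2afy2 mice (log2 0.24 ± 0.08 SE, edgeR adjusted p = 0.170). H2afy2 had 16.2, 15.0 and 13.5 CPM in shH2afy mice (log2 −0.25 ± 0.12 SE, edgeR adjusted p = 0.159). Neither was called, and neither overlapped the shScr mice. The paper reports that each target's protein also fell, and that H2afy mRNA rose with shH2afy2.

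By edgeR, knockdown of H2afy2 called no gene near a member. A gene was called where edgeR's adjusted p was below 0.01 and the fold exceeded 2. Of 527 tested genes near members 0 were higher and 0 lower, where 0% of all 15609 genes were called higher and 0% lower. Further, 110 of 527 (20.9%) came below an unadjusted edgeR p of 0.05, against 20.7% of all genes. At the full limits DESeq2 called 2 of 535 genes near members (0.374%) and 0.785% of all genes. The median log2 fold change was 0.01 near members and −0.01 over all genes. Of 2587 genes with a member over the body 0 were called, and 549 (21.2%) came below an edgeR p of 0.05 before adjustment.

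Among genes near members, the smallest p of those higher was that of Chpf, which polymerises chondroitin, at 207, 220 and 285 CPM in shH2afy2 mice, against 133, 126.3 and 107 CPM in shScr mice (log2 0.93, edgeR adjusted p = 0.0714). Ube2g2, a ubiquitin-conjugating enzyme, had 79.4, 77.6 and 94.8 CPM in shH2afy2 mice, against 61.4, 54.5 and 51.5 CPM in shScr mice. Neither gene passed. Of those lower, Metrnl had 5.27, 4.18 and 5.08 CPM in shH2afy2 mice, against 8.76, 10.3 and 8.07 CPM in shScr mice (log2 −0.93, edgeR adjusted p = 0.0739). Next by p were Ifit1, Cpeb1os1 and Cybc1 on the higher side and Klhl42, Tbc1d13, Mex3d and Pknox2 on the lower, with edgeR adjusted p of 0.0752 to 0.101. As genes picked by smallest p, they would be likely to stand apart between groups. Cpeb1os1 lies opposite Cpeb1, and the strand setting of the counting is not given in the sources used here.

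Knockdown of H2afy called 38 genes near members, most of them higher. Of 531 genes 32 were higher (6.03%) and 6 lower (1.13%), where 10.5% of all 16179 genes were called higher and 1.2% lower. The difference between these shares was not tested. Genes near shared domains alone were called higher in 15.5% and lower in 1.84%, and genes with a member over the body higher in 5.73% (150 of 2618) and lower in 1.91% (50). The median log2 fold change was −0.08 near members and 0.01 over all genes. With the replicate number as a block 24 genes near members were called (4.52%, against 7.08% of all genes), and without 1 mouse in turn 19 to 61. The 19 came without shH2afy mouse 1 (3.50%, against 5.65% of all genes) and 24 without shScr mouse 3 (4.36%, against 6.42%). The 61 came without shH2afy mouse 3 (11.2%, against 14.1% of all genes). Markers of microglia summed to 748 to 1551 CPM in shH2afy mice and 127 to 189 CPM in shScr mice (4 of 4 markers measured), and those of macrophages and B cells to 182 to 2937 CPM in shH2afy mice and 4.31 to 21.3 CPM in shScr mice (3 of 3). Markers of CA1 pyramidal neurons summed to 403 to 548 CPM in shH2afy mice and 859 to 1841 CPM in shScr mice (6 of 6). The part of these cell types in the result was not tested.

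The 10 genes called higher with the largest fold at a mean of at least 1 CPM were named. Isg15, an interferon-induced ubiquitin-like protein, had 93.6, 91.4 and 56.6 CPM in shH2afy mice, against 0.483, 1.01 and 1.02 CPM in shScr mice (log2 6.66, edgeR adjusted p = 5.88e-05). Ifit1, which binds foreign RNA, had 148.7, 123 and 88.2 CPM in shH2afy mice, against 2.48, 2.09 and 1.74 CPM in shScr mice (log2 5.87, edgeR adjusted p = 4.01e-05). Mpeg1, a pore-forming protein of macrophages, had 764, 852 and 415 CPM in shH2afy mice, against 50.0, 29.8 and 28.5 CPM in shScr mice (log2 4.29, edgeR adjusted p = 0.000291). These stood far apart in every mouse. Others called higher were Phf11b, the interferon-induced GTPase gene Tgtp1, Ms4a6d and Ms4a6b of myeloid cells, Hcls1, a substrate of kinases in blood cells, and Esm1 of endothelium, with log2 fold changes of 3.69 to 5.78. Glycam1, a mucin of lymph node vessels, had 7.91, 4.37 and 6.35 CPM in shH2afy mice, against 0.138, 0.0633 and 0 CPM in shScr mice.

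The 6 genes called lower near members had smaller changes. Satb1, a chromatin organiser, had 36.4, 55.3 and 43.6 CPM in shH2afy mice, against 91.9, 158 and 111 CPM in shScr mice (log2 −1.35, edgeR adjusted p = 0.0045). Chchd4, of mitochondrial protein import, had 18.4, 20.1 and 21.0 CPM in shH2afy mice, against 43.8, 39.4 and 41.4 CPM in shScr mice (means 19.8 ± 1.28 and 41.5 ± 2.22 CPM, edgeR adjusted p = 0.000763). Neither overlapped between groups, which is likely for genes chosen because they were called. The others were Ppp2r2c, a regulatory subunit of protein phosphatase, Sult4a1, a sulfotransferase of brain, Rwdd2a and Fv1, with log2 fold changes of −1.24 to −1.03.

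**Figure D5:**
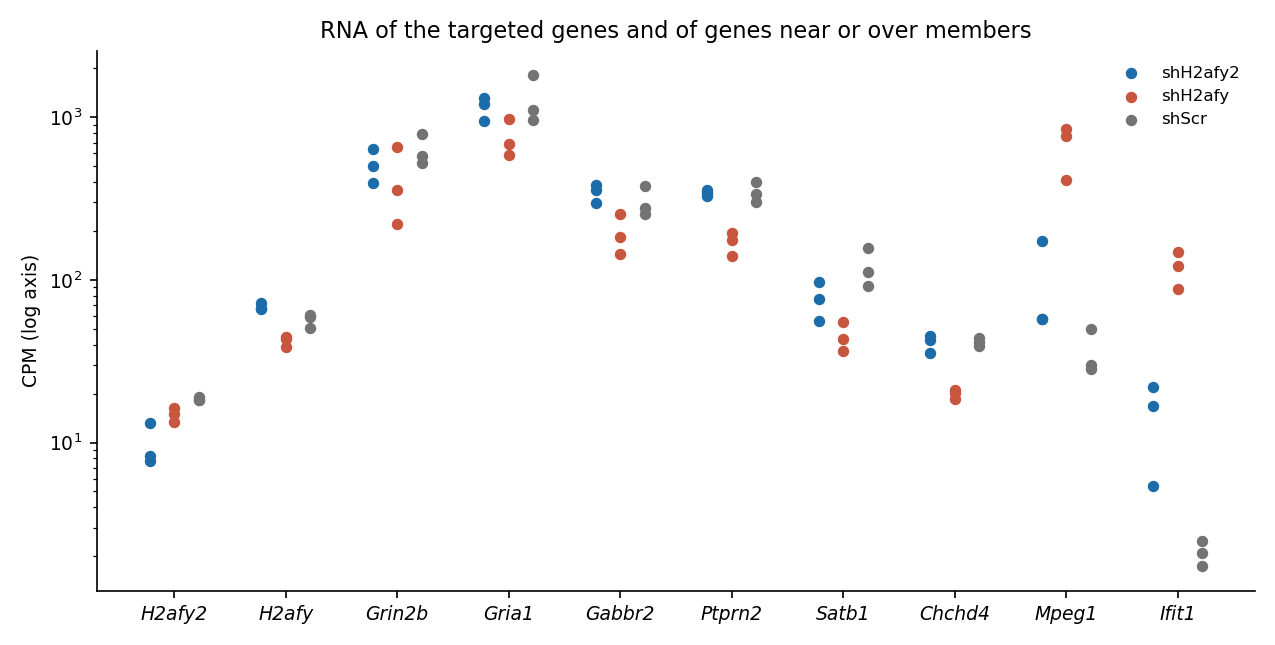
CPM (y axis, log scale) in each mouse with shH2afy2 (blue), shH2afy (red) or shScr (grey), for the targeted genes H2afy2 and H2afy and for genes near or over members (x axis). Ifit1 and Mpeg1 are higher in the 3 shH2afy mice than in the 3 shScr mice and Satb1 and Chchd4 lower, and Gabbr2 and Ptprn2 do not pass in either knockdown.

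The genes rich in members passed in neither knockdown. Gabbr2 had 383, 297 and 358 CPM in shH2afy2 mice and 183, 145 and 253 CPM in shH2afy mice, against 279, 380 and 255 CPM in shScr mice. For shH2afy2 the groups overlapped (log2 0.16, edgeR adjusted p = 0.613), and for shH2afy they did not (log2 −0.59, edgeR adjusted p = 0.0838). Ptprn2 had 356, 330 and 341 CPM in shH2afy2 mice and 140, 194 and 176 CPM in shH2afy mice, against 403, 340 and 300.4 CPM in shScr mice. Its log2 fold change was −0.05 with shH2afy2 and −0.97 with shH2afy, where the adjusted p of 0.00437 by edgeR passed and the fold did not reach 2. Gria1 had 1320, 955 and 1201 CPM in shH2afy2 mice and 684, 584 and 971 CPM in shH2afy mice, against 1816, 1111 and 966 CPM in shScr mice, with overlap in both.

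Of the 12 genes for glutamate receptors and the postsynaptic density with members, none was called in either knockdown, and their median log2 fold change was −0.19 with shH2afy2 and −0.68 with shH2afy. The 3 interferon response genes with members over the body were all called higher with shH2afy, as were 10.5% of all genes. The edgeR test of shH2afy2 called no gene at all, so its calls cannot contrast the knockdowns. With shH2afy2 the median log2 fold change of the 3 was 0.40. Ifit1 had 22.1, 16.7 and 5.37 CPM in shH2afy2 mice, against 2.48, 2.09 and 1.74 CPM in shScr mice (log2 2.77). Isg15, near a member, had a log2 fold change of 2.56 there. The paper lists Ifit1 and Isg15 as higher with either depletion. Reln was called lower with shH2afy, with a log2 fold change of −1.16. Of the other list genes near members, Grin2b, an NMDA receptor subunit, had log2 fold changes of −0.32 with shH2afy2 and −0.56 with shH2afy, Pcgf5 −0.29 and 0.13, and Rpl37 −0.18 and 0.13, none called. Airn was below 1 CPM in every mouse and lies antisense to Igf2r, from which its reads may not be told apart.

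By edgeR, training called no gene near a member in either experiment. The paper used DESeq2 and reports more genes changed with training, in both experiments, than edgeR called here. In intact mice, where the limit was an adjusted p of 0.01 by edgeR at any fold, 0 of 479 genes passed. Of all genes 0.0959% were called higher (15 of 15639) and 0% lower. Near members, 96 (20.0%) came below an unadjusted edgeR p of 0.05, against 3121 (20.0%) of all genes. DESeq2 called 17 of 456 genes near members (3.73%) and 464 of all genes (3.26%). EdgeR without untrained mouse 2 called 17 of 477 (3.56%) and 2.68% of all genes. The smallest p among genes near members was that of Fastkd5, of mitochondrial RNA processing, at 12.1 and 11.4 CPM in trained mice, against 7.19, 6.77 and 7.66 CPM in untrained mice (log2 0.70, edgeR adjusted p = 0.0236). Dnajb5, a co-chaperone, had 161 and 155 CPM in trained mice, against 92.8, 111 and 94.4 CPM in untrained mice (log2 0.67, edgeR adjusted p = 0.0248). Neither passed, and both were named for their small p.

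The next by p were Dedd2, Phf23 and Slc15a4 on the higher side, and Frat1, Slitrk1, Lrrc55, Bckdk and Bbc3 on the lower, with edgeR adjusted p of 0.0290 to 0.121. In shScr mice the limits were an adjusted p of 0.05 by edgeR and a 1.2-fold change, and 0 of 477 genes passed, where 0% of all 15424 genes were called higher and 0% lower. Near members, 33 (6.92%) came below an unadjusted edgeR p of 0.05, against 8.96% of all genes. At the full limits DESeq2 called 2 of 465 genes near members (0.430%) and 211 of all genes (1.48%). Dpysl5, of the CRMP family in growing axons, had 63.4, 62.6 and 57.9 CPM in trained shScr mice, against 42.3, 44.6 and 46.0 CPM in untrained shScr mice (log2 0.47, edgeR adjusted p = 0.154). Frat1, which binds the kinase GSK3, had 15.9 and 17.0 CPM in trained intact mice, against 22.3, 23.4 and 21.7 CPM in untrained intact mice, and it was also among the 5 lower genes with the smallest p in shScr mice (log2 −0.45 and −0.37).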

How the data were processed

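Chromatin from CA1 was sequenced in 30 libraries, 11 of mH2A2 and 19 of mH2A1. The authors aligned reads to mm10 with Bowtie2 and called broad domains in each library against its own input at an FDR under 0.05, with epic2 according to the methods and SICER according to the labels. The deposited lists give, per domain, counts of ChIP and input reads, the p-value and FDR, the log2 of ChIP over input scaled for library size, and a score that is 100 times this log2. For RNA the authors aligned with STAR and deposited raw counts per gene from featureCounts, whose totals ran from 9954415 to 18750763 in the knockdown experiment, 48764368 to 58649687 in intact mice and 83859578 to 92226421 in shScr mice of the training experiment. The shH2afy libraries of the training experiment are not used here.

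Domains were laid on bins of 200 bp. Libraries were compared by an exact permutation of antibody or training labels within experiment and condition, with scipy 1.17.1. RNA counts were tested with edgeR 4.0.16 (quasi-likelihood, default filter, comparison of 2 groups) in R 4.3.3, with DESeq2 1.42.0 as an alternative, and 2 rows of the intact table that name no gene were left out. Gene names and places came from GENCODE vM21, in which 15572 of 15609, 15160 of 15639 and 15238 of 15424 tested genes of the shH2afy2, intact and training comparisons were found. The scripts were tested on simulated data. Where the labels do not state that samples of a group come from separate mice, p-values measure only the spread between these samples, which may be technical.

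Members and lists were chosen with earlier results of these data known. Named members were the 10 longest, the 10 with the highest mean log2 among those that recurred, and recurring members with a gene start. Named genes, without predicted ones, were those with a start within 2 kb of a member that were called, up to 10 in each direction by fold at a mean of at least 1 CPM, or otherwise the 5 with the smallest p in each direction, and list genes near a member. The result of 1 gene list is not reported here. The 20 genes with the most members were added after the data were seen, as was the contrast of members in and outside genes. In the training experiment the deviations of mice with the same number from their group means correlated (r of 0.17 to 0.23). The main test there did not pair the mice, and the number served as a block only in an alternative fit. That fit called 0 of 477 genes near members and 0 of all 15424 genes. In the other RNA experiments r was −0.29 to −0.06, and the block was likewise only an alternative. At 30 min the same mice gave both antibodies, and the tests of antibody permuted labels within mouse there.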

Additional observations from a re-analysis of the deposited data

How the results depend on the processing

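The differences between antibodies kept their direction in all 21 alternatives each, from 1.63 to 1.82 for members and 1.27 to 1.37 for members against shared domains with 1 library left out. Without the untrained mice at 1 h they were 1.70 and 1.34 with exact permutation p = 0.05, because fewer arrangements remain. Permuting without the replicate block, that is without pairing by mouse at 30 min, left both values as they were (exact permutation p = 0.00333).

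The difference with training for mH2A2 at 1 h was −2.68 as a plain percent of bases, and with 1 library left out −0.085 to 0.19 for mH2A2 and −0.49 to 0.044 for mH2A1 at 1 h, so neither has a settled direction. The number of members was 1362 with mH2A2 in all 3 mice, 2669 at an mH2A2 FDR under 0.001, 4597 with no mH2A1 domain within 2 kb, 17610 with mH2A1 allowed in 1 of 3 mice, and 4198 to 5083 with 1 mouse left out, lowest without mouse 3.

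For shH2afy2, DESeq2 called 2 genes near members (0.374%, against 0.785% of all genes), where the main test called 0. There edgeR without a filter called 7 (0.735%, against 0.923% of all genes). For shH2afy the main test called 38 (7.16%, against 11.7% of all genes), and edgeR without a filter 63 (6.44%, against 7.60% of all genes). With the replicate block, whose numbers do not pair these mice, the calls were 24 (4.52%, against 7.08% of all genes). With other definitions of the members they were 7 (mH2A2 in all 3 mice), 14 (FDR), 21 (2 kb) and 118 (1 of 3). With other links they were 18 for a gene start inside a member, 200 for a body over one and 16 for a start within 100 kb of a recurring one. Other definitions and links kept the main test, with its 11.7% of all genes, and changed how many genes count as near. With 1 mouse left out the calls were 19 to 61 (3.50% to 11.2%, against 5.65% to 14.1% of all genes). For training in intact mice DESeq2 called 17 (3.73%, against 3.26% of all genes) and edgeR without a filter 1 (0.179%, against 0.261% of all genes). With 1 mouse left out the calls were 0 to 17, where 17 came without untrained mouse 2 (3.56%, against 2.68% of all genes). For training in shScr mice DESeq2 called 2 (0.430%, against 1.48% of all genes). The block changed no other count of calls near members, but over all 15639 genes of intact mice it took the calls from 15 to 0. The cause of these shifts was not tested.

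Domain lists hold no depth and no signal outside domains, so a missing domain is not an absence of the variant. H2afy2 itself was not called at a log2 fold change of −0.95, so a change of that size near a member was also below what these tests called.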
